A study of Rattus norvegicus with 15 samples.

Results

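The 8 genes described here encode enzymes of the cholesterol synthesis pathway: Hmgcs1, Idi1, Fdps, Fdft1, Sqle, Lss, Cyp51 and Dhcr7. They were chosen by name from the textbook pathway, with earlier results of these data known, and all 8 were found among the 22436 genes of the table. Other genes of sterol synthesis, sensing, uptake, storage, efflux and fatty acid synthesis are given beside them, 63 after a filter on low values that all 8 enzymes passed.

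Cells build cholesterol from acetyl-CoA in a long chain of steps that first makes isoprenoid units (the mevalonate part), then joins them into squalene, and finally folds and trims squalene into cholesterol (the sterol part). When membrane cholesterol is low, the transcription factor SREBP-2 (gene Srebf2) is escorted by Scap to be cut free and raises the transcription of these enzymes together, while Insig proteins hold it back when sterols are plentiful. Prostate epithelium is a lipid-rich tissue in which androgens are known to raise the same genes.

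Prostate RNA of SD rats was sequenced in 3 groups of 5 samples, numbered 6 to 10 in each. Control samples came from untreated rats, Model samples from untreated rats with induced chronic prostatitis and pelvic pain, and LIPUS samples from that model after 4 weeks of low-intensity pulsed ultrasound. The intensity is 1.0 W/cm2 in the sample titles but 1.5 W/cm2 in another label, and the agent that induced the model, the age of the rats and the lobe dissected are not given in the sources used here. The labels do not say that samples came from separate animals, so the spread behind the p-values may be technical.

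Libraries held 29675962 to 36402094 reads. The 13 mitochondrially encoded genes took 3.75% to 4.69% of reads in Control, 23.5% to 43.5% in Model and 43.0% to 83.3% in LIPUS, with the highest share in LIPUS replicate 10. FPKM (fragments counted on a gene, scaled by its length and by the size of its library) counts these reads in the library size, and as deposited its median change over all 12490 tested genes was -0.90 on the log2 scale in Model against Control and -1.48 in LIPUS against Control. Below, FPKM was divided by a median-of-ratios factor per library ("rescaled FPKM"), which leaves a median change of -0.15 in each. The rat prostate has lobes with different secretions, and the log2 FPKM of 3 ventral over 2 dorsolateral secretory genes (the lobe ratio) was 1.16 to 5.84 in Control, -0.683 to 4.52 in LIPUS and -9.51 to -2.84 in 4 Model samples, while Model replicate 7 stood apart at 7.79. The 11 luminal epithelial markers summed to 36578 to 181667 rescaled FPKM over all 15 samples, so the genes that define the labelled tissue were present in each. Macrophage markers (7 genes) summed to 24.3 to 32.9 in Control, 26.3 to 68.4 in Model and 72.8 to 233 in LIPUS. Fibroblast markers (4 genes) summed to 323 to 547, 48.6 to 122 and 58.7 to 409, and Schwann cell markers (5 genes) to 20.5 to 29.7, 4.55 to 17.7 and 5.08 to 22.6 in the same order. Adipocyte markers (5 genes) summed to 7.64 to 123, 0.344 to 9.09 and 1.47 to 44.5, and liver markers stayed at or under 2.16 in every sample. Seminal vesicle markers (5 genes), of a gland that lies against the prostate, summed to 281 to 54756 in Control, 464 to 22363 in LIPUS and 57832 to 99336 in 4 Model samples, but to 39.8 in Model replicate 7. Smooth muscle markers (4 genes) summed to 291 to 764, 94.2 to 350 and, in the 4 Model samples, 194 to 404, with 21.6 in Model replicate 7. Basal epithelial markers (4 genes) summed to 32.04 to 42.01 in Control, 13.1 to 112 in LIPUS and 16.3 to 44.7 in the 4 Model samples, with 3.94 in Model replicate 7.

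In untreated prostate the 8 enzymes were expressed at very different levels, compared here per length as deposited FPKM. Fdps, which makes farnesyl pyrophosphate, the branch point to sterols and to protein prenylation, was highest with a median of 297 FPKM (202 to 442) and overlapped no other enzyme. Cyp51, which removes a methyl group from lanosterol, had a median of 129 (90.6 to 167), and Hmgcs1, which makes HMG-CoA at the head of the pathway, had 111 (56.9 to 125). Fdft1, the squalene synthase that commits isoprenoids to sterols, followed at 68.5 (48.3 to 93.2), Idi1, which isomerizes the isoprenoid unit, at 46.5 (37.4 to 68.1), and Sqle, the squalene epoxidase and a rate-limiting step of the sterol part, at 34.8 (25.6 to 40.6). From Cyp51 down to Sqle each enzyme overlapped the next. Dhcr7, which makes a final reduction to cholesterol, at 11.5 (8.27 to 13.6), and Lss, which closes the sterol rings, at 10.4 (9.37 to 12.5) overlapped each other and lay below all the rest.

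In Model that order was different at its lower end. Sqle had a median of 4.70 FPKM in Model (4.54 to 9.74), within the ranges of Dhcr7 (1.01 to 9.38) and Lss (2.46 to 9.48), whereas in Control its lowest sample was above the highest of both. In LIPUS the medians of Hmgcs1 (25.7) and Idi1 (25.2) stood above that of Cyp51 (21.2), with ranges that overlapped, and Sqle had a median of 4.90 (0.502 to 6.45). These medians and ranges are taken across libraries and depend on how libraries were scaled.

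The 8 enzymes did not vary as 1 block from sample to sample. After each group's mean was removed, log2 rescaled values of Hmgcs1, Idi1 and Fdps, all of the isoprenoid part, tracked each other with Pearson r of 0.92 to 0.98 over the 15 samples. Sqle, Lss, Cyp51 and Dhcr7, all of the sterol part, tracked each other with r of 0.57 (Lss with Dhcr7) to 0.91 (Sqle with Cyp51). Between the isoprenoid and the sterol part r ran from 0.00 (Fdps with Dhcr7) and 0.03 (Idi1 with Dhcr7) up to 0.51 (Idi1 with Sqle). Fdft1, which stands between these parts, correlated with every enzyme of both, at 0.56 (Dhcr7) to 0.89 (Sqle). These are descriptions across samples that share depth, scaling and the outlying libraries, and they carry no test.

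**Figure D1:**
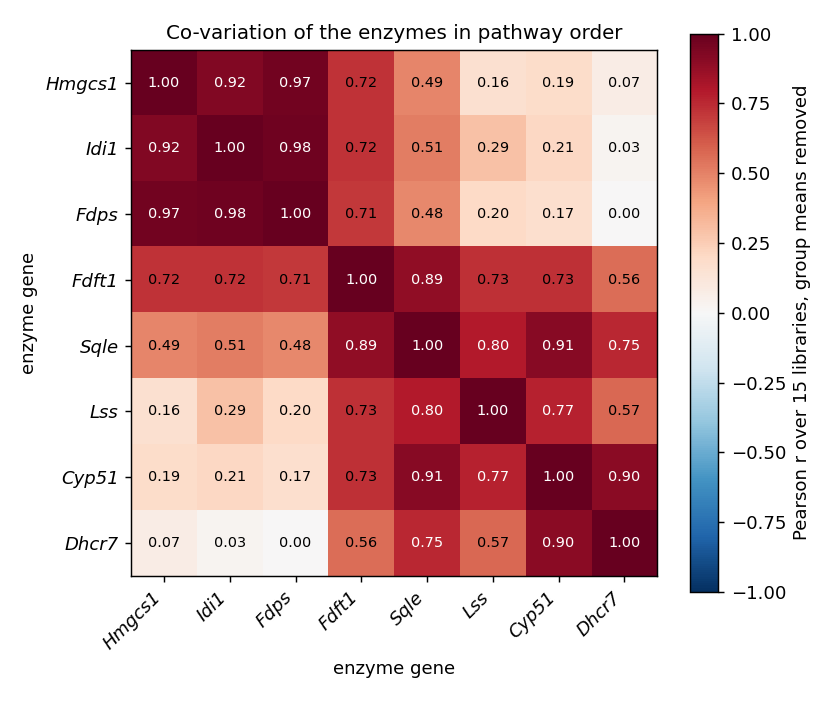
Pearson r between each pair of the 8 enzymes over 15 samples (log2 rescaled FPKM with each group's mean removed), with genes in pathway order on both axes and colour giving r. The 3 enzymes of the isoprenoid part form 1 dark block (0.92 to 0.98) and the enzymes from Fdft1 to Dhcr7 another, with values near 0 between Fdps and Dhcr7.

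Because the enzymes fell into these 2 sets, the promoter windows of 3 isoprenoid-part and 2 sterol-part enzymes are shown side by side. Each runs from 250 bases before to 50 bases after the gene's start, 5′ to 3′ on the gene's strand, from RefSeq on build GRCr8. The windows are chr2:53382054-53382353 (plus strand) for Hmgcs1, chr17:66547475-66547774 (minus) for Idi1, chr2:176804767-176805066 (minus) for Fdps, chr4:30991443-30991742 (plus) for Cyp51 and chr1:208444184-208444483 (plus) for Dhcr7. Capitals mark the CCAAT box, the motif of nuclear factor Y, a partner of SREBP on many sterol genes, as CCAAT or, on the opposite strand, ATTGG.
Hmgcs1: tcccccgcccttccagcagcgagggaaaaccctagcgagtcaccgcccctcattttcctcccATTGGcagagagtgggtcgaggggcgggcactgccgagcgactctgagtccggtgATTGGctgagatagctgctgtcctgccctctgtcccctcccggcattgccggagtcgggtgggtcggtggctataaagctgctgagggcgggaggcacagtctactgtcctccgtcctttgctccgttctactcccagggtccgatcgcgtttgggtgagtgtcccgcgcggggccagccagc
Idi1: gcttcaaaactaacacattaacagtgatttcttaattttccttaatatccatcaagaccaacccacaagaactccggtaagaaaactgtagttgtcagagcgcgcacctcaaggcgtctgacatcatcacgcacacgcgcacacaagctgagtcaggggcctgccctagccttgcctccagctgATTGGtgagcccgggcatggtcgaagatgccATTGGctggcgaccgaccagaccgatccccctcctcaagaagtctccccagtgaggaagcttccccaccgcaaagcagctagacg
Fdps: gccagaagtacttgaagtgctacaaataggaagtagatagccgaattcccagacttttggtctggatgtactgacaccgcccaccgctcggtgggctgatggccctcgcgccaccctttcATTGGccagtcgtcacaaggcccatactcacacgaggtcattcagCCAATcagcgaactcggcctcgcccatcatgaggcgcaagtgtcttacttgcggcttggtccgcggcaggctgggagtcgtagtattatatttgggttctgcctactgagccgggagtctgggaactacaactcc
Cyp51: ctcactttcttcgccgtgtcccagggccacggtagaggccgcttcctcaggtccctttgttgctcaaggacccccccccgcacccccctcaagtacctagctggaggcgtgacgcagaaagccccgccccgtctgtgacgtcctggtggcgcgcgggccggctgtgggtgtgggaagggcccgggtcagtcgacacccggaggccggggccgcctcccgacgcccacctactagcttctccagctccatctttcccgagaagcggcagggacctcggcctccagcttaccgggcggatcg
Dhcr7: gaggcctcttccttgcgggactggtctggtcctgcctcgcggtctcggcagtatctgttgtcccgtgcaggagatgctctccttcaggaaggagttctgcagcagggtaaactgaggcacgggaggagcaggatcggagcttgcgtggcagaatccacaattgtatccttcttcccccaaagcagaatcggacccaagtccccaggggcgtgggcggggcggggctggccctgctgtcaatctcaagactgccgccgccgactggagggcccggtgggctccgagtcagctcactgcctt

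Windows were found for 6 of the 8 enzymes, the sixth being Lss. The Hmgcs1, Idi1 and Fdps windows each held 2 CCAAT boxes and the Lss window 1, while the Cyp51 and Dhcr7 windows held 0. That is 4 of 6 windows, beside 37.5% of all 33469 windows of this length. The sterol regulatory element that SREBP binds, searched in a shortened form with a free base as TCACNCCAC (reverse complement GTGGNGTGA), was in 0 of the 6 and in 1.12% of all windows. Forms that differ more from it were not searched, so 0 matches do not show that these windows lack a site for SREBP. The E-box CANNTG, a motif that SREBP also binds, was in 4 of 6 windows (not Hmgcs1 or Cyp51) and in 72.1% of all. No E-box shared a base with a CCAAT box in these windows, and a match describes letters in a window only.

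Model against Control asks how the prostatitis model differs from untreated prostate. Squalene epoxidase (Sqle) transcripts were 3.25-fold lower in Model, and the means of the other 7 enzymes were also lower, by 1.36-fold (Lss) to 3.04-fold (Fdps), without passing the test. The call rule was an adjusted p under 0.05 by limma on log2(rescaled FPKM + 0.1), adjusted over 12490 genes. By it 1 of 8 enzymes fell and 0 rose, beside 20.2% of all genes called lower and 15.3% called higher, a share that gives no result about the 8 as a set. On FPKM as deposited 6 of 8 were called lower (all but Idi1 and Dhcr7), beside 43.1% of all genes called lower and 2.95% higher. The median change of the 8 was -0.87 on the log2 rescaled scale, beside -0.15 for all genes tested.

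Sqle reached 24.2, 14.98, 16.6, 20.5 and 21.5 rescaled FPKM in Control replicates 6 to 10, and 4.83, 6.31, 4.97, 4.99 and 9.20 in Model replicates 6 to 10. Every Model sample lay below every Control sample. The log2 change was -1.70 (SE 0.37, 3.25-fold lower, n = 5 and 5, limma adjusted p = 0.00237), and the call held when any 1 of the 15 libraries was left out, with adjusted p up to 0.00779. In bulk tissue, fewer cells of a type and less RNA per cell cannot be told apart.

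Cyp51, which acts after Sqle and Lss, was the other one whose groups did not overlap. It read 99.9, 53.0, 59.6, 79.98 and 75.02 rescaled FPKM in Control and 39.6, 25.0, 27.9, 37.0 and 52.8 in Model, with the highest Model sample just under the lowest Control sample. Its log2 change was -1.02 (SE 0.39, limma adjusted p = 0.0532), short of the threshold. Groups without overlap in the lower direction were found for 2 of 8 enzymes, beside 18.3% of all genes.

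The 3 isoprenoid-part enzymes were split by a single library. Fdps, for example, read 264, 118, 146, 209 and 173 rescaled FPKM in Control and 23.9, 357, 84.3, 22.0 and 40.0 in Model, so 4 Model samples lay below all of Control and Model replicate 7 above all of it. Hmgcs1 read 74.5, 33.3, 62.9, 65.8 and 51.8 in Control and 11.3, 81.0, 34.1, 13.4 and 15.9 in Model. Idi1 read 40.7, 21.9, 24.5, 27.4 and 31.3 in Control and 10.7, 72.6, 19.4, 7.62 and 15.7 in Model. In both the same library was the highest of all 10.

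With all 15 libraries the log2 changes were -1.61 for Fdps (SE 0.64, adjusted p = 0.063), -1.26 for Hmgcs1 (SE 0.51, adjusted p = 0.0645) and -0.67 for Idi1 (SE 0.50, adjusted p = 0.321) by limma. Without Model replicate 7, the library with a ventral-type secretory ratio, they were -2.26 (adjusted p = 0.00101), -1.71 (adjusted p = 0.00357) and -1.18 (adjusted p = 0.0164). In that fit 5 of 8 enzymes were called lower, beside 3242 of 12490 genes, against 2525 genes with all libraries. With the lobe ratio as a term in the fit the changes of Fdps, Hmgcs1 and Idi1 were 0.20, 0.06 and 0.71, none called, while Sqle stayed called at -1.40 (adjusted p = 0.0286). The lower isoprenoid-part levels in 4 Model samples thus came together with their dorsolateral-type secretory ratio, and with seminal vesicle marker sums of 57832 or more, against 39.8 in Model replicate 7. Tissue make-up and model cannot be told apart for these 3 genes. Leaving out LIPUS replicate 10 gave 5 called, leaving out Model replicate 10 gave 3 and leaving out LIPUS replicate 9 gave 2. Over all 12490 genes, 2839, 2105 and 2551 were called lower in these fits.

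Fdft1, between the isoprenoid and the sterol part, read 55.6, 28.2, 31.7, 47.4 and 39.9 rescaled FPKM in Control and 16.9, 32.9, 21.7, 20.4 and 32.4 in Model. The groups overlapped, with a log2 change of -0.71 (SE 0.30, limma adjusted p = 0.0792). In the sterol part, Lss had a log2 change of -0.44 (SE 0.28, adjusted p = 0.238) and Dhcr7 of -0.60 (SE 0.87, adjusted p = 0.628). Dhcr7 was 4.64 to 8.86 in 4 Model samples, inside or near the Control range of 4.84 to 8.14, and 0.871 in Model replicate 7, which was low for this enzyme where it was high for Fdps.

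**Figure D2:**
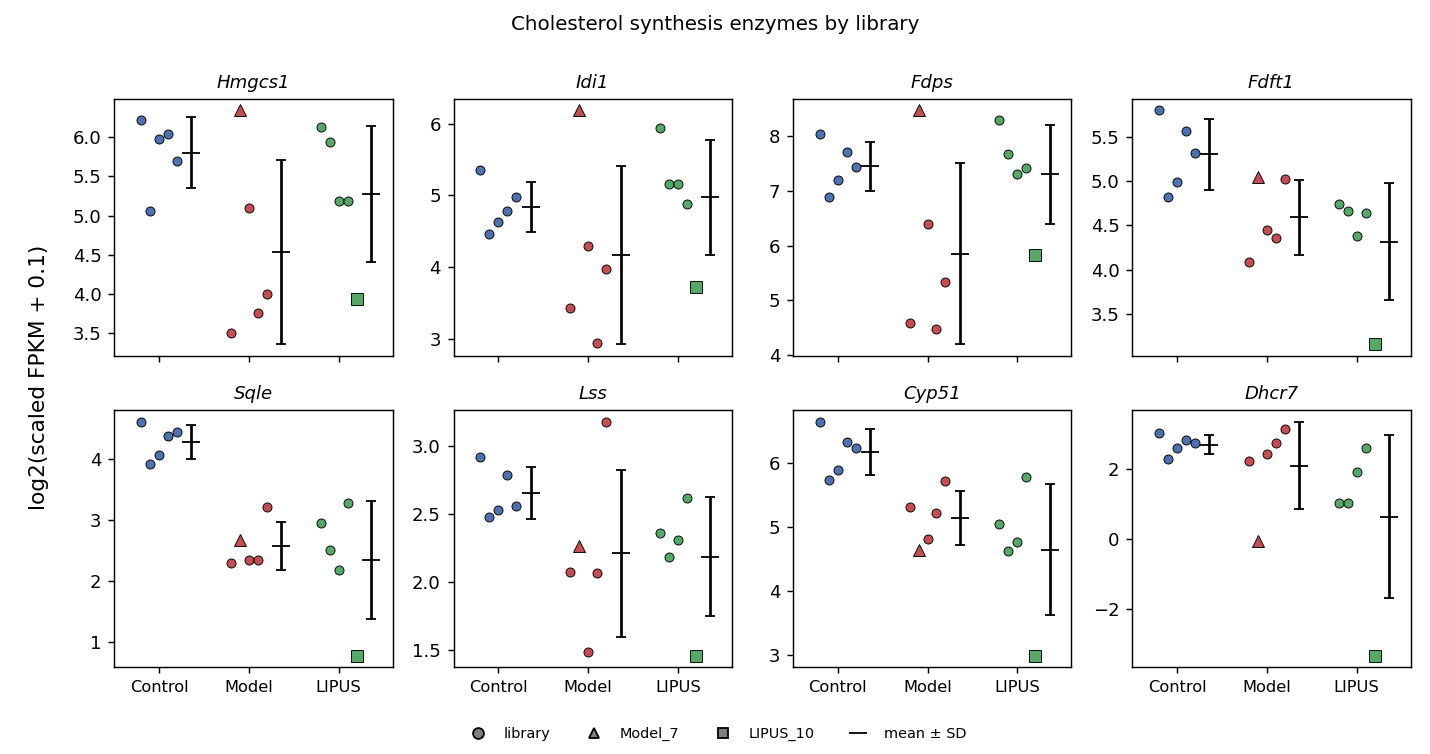
Log2(rescaled FPKM + 0.1) of each enzyme in every library, by group, with the mean and SD (bars) of 5 libraries each and a separate y axis per gene. Model replicate 7 (triangle) is the highest Model sample for Hmgcs1, Idi1 and Fdps and the lowest for Cyp51 and Dhcr7, and LIPUS replicate 10 (square) is the lowest LIPUS sample for all 8.

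Gene length also moved with this comparison. Over the 12490 tested genes the median log2 change ran from 0.77 for genes under 1 kb to -0.57 for genes over 6 kb (Spearman rho -0.321 across genes, which are not independent replicates). At 2 to 3 kb, the class of Sqle (2241 bases), Idi1 and Dhcr7, the median was -0.06, and at 3 to 4 kb, the class of Cyp51 and Fdft1, it was -0.22. In LIPUS against Control rho was -0.394, and in LIPUS against Model -0.0384. In LIPUS against Control the median was -0.04 at 2 to 3 kb, with 9.08% called lower. At 3 to 4 kb it was -0.22, with 13.4% called lower. The part of length in the members' changes was not tested in any comparison.

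LIPUS against Model asks what ultrasound changed within the model. The 3 isoprenoid-part enzymes had higher means in LIPUS, by 1.67-fold (Hmgcs1), 1.75-fold (Idi1) and 2.74-fold (Fdps), and the other 5 had means between 1.02-fold (Lss) and 2.74-fold (Dhcr7) lower. None passed the test: by limma 0 of 8 enzymes were called, beside 4.22% of all genes, 1 (Fdps) had an unadjusted p under 0.05, and limma-voom on the recovered reads also called 0. On FPKM as deposited 0 of 8 were called beside 14.6% of all genes, and 0 of 8 enzymes had groups without overlap on rescaled FPKM, beside 2.91% of all genes.

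Fdps read 315, 204, 158, 171 and 56.6 rescaled FPKM in LIPUS replicates 6 to 10, against 22.0 to 84.3 in 4 Model samples and 357 in Model replicate 7. With all libraries the groups overlapped. LIPUS values lay above all Model values only without Model replicate 7 and LIPUS replicate 10, the highest Model and the lowest LIPUS value. Setting these aside favours such a gap, and its share over all genes was not counted. The log2 change was 1.45 (SE 0.64, limma adjusted p = 0.168), against 0.74 for Hmgcs1 (adjusted p = 0.367) and 0.81 for Idi1 (adjusted p = 0.318).

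Model replicate 7 decided these calls. Without it Fdps (log2 change 2.11, adjusted p = 0.00391), Idi1 (1.31, adjusted p = 0.0145) and Hmgcs1 (1.19, adjusted p = 0.0401) were called higher in LIPUS by limma, and all genes called rose from 527 to 4001. With the lobe ratio in the fit instead, the changes were 0.28, -0.09 and -0.12, with none called. The remaining Model samples and the LIPUS samples did not overlap in that ratio (-9.51 to -2.84 against -0.683 to 4.52), nor in their seminal vesicle marker sums (57832 to 99336 against 464 to 22363), so treatment and tissue make-up cannot be told apart here.

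No enzyme from Fdft1 to Dhcr7 was called in LIPUS against Model. Sqle read 7.65, 5.58, 4.46, 9.66 and 1.62 rescaled FPKM in LIPUS, a range that holds all of the Model values, with a log2 change of -0.23 (SE 0.37, limma adjusted p = 0.7095). Cyp51 read 33.1, 24.6, 27.2, 54.7 and 7.86 (log2 change -0.50, SE 0.39, adjusted p = 0.432), and Fdft1 read 26.6, 25.2, 20.8, 24.8 and 8.84 (log2 change -0.27, SE 0.30, adjusted p = 0.586). Dhcr7 read 1.95, 1.94, 3.69, 5.99 and 0, the last from 0 reads in LIPUS replicate 10, where a count of 0 allows up to 3 reads. Its log2 change of -1.45 (SE 0.87, adjusted p = 0.303) depends on that library and was -0.46 without it.

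LIPUS against Control asks how far treated model tissue stood from untreated prostate, and it shares its samples with the 2 comparisons above. Sqle, Cyp51 and Fdft1, all acting from squalene synthesis onward, were 3.82-fold, 2.87-fold and 1.98-fold lower in LIPUS. Hmgcs1, Idi1 and Fdps had changes of -0.52, 0.14 and -0.15 on the log2 scale and did not pass. By limma 3 of 8 enzymes fell and 0 rose, beside 14.3% of all genes called lower and 11.6% higher. On FPKM as deposited 6 of 8 were called lower, beside 74.4% of all genes called lower and 0.953% higher.

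The log2 change of Sqle was -1.93 (SE 0.37, limma adjusted p = 0.00145), and no LIPUS sample (1.62 to 9.66) reached the lowest Control sample (14.98). That of Cyp51 was -1.52 (SE 0.39, adjusted p = 0.0103), with LIPUS replicate 9 at 54.7 inside the Control range. That of Fdft1 was -0.98 (SE 0.30, adjusted p = 0.0263), with no overlap between groups, and its call was lost without Control replicate 6 (adjusted p = 0.0703), replicate 9 (0.0647) or replicate 10 (0.0533). Groups without overlap were found for 2 of 8 enzymes in the lower direction, beside 15.3% of all genes. Without LIPUS replicate 10, the library with the most mitochondrial reads, Sqle (-1.54), Cyp51 (-1.11) and Fdft1 (-0.70) were still called, and with the lobe ratio in the fit they were -1.83, -1.53 and -0.83 and still called.

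Dhcr7 had the lowest value at -2.05 (SE 0.87, limma adjusted p = 0.0979), resting largely on the sample at 0 reads, and -1.06 (adjusted p = 0.162) without it. Dhcr7 was called by limma without LIPUS replicate 9 (-2.54, adjusted p = 0.0468) and as deposited (-3.13, adjusted p = 0.00223). The call was also made with nuclear scaling (-2.40, adjusted p = 0.0347) and with array weights (-1.52, adjusted p = 0.0223). Without both Model replicate 7 and LIPUS replicate 10, Dhcr7 was at the same -1.06 and called (adjusted p = 0.0156). Lss changed by -0.47 (SE 0.28, adjusted p = 0.239), with 7.49, 5.48, 5.69, 6.80 and 5.81 rescaled FPKM in Control and 5.04, 4.46, 4.87, 6.05 and 2.65 in LIPUS, which overlapped.

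**Figure D3:**
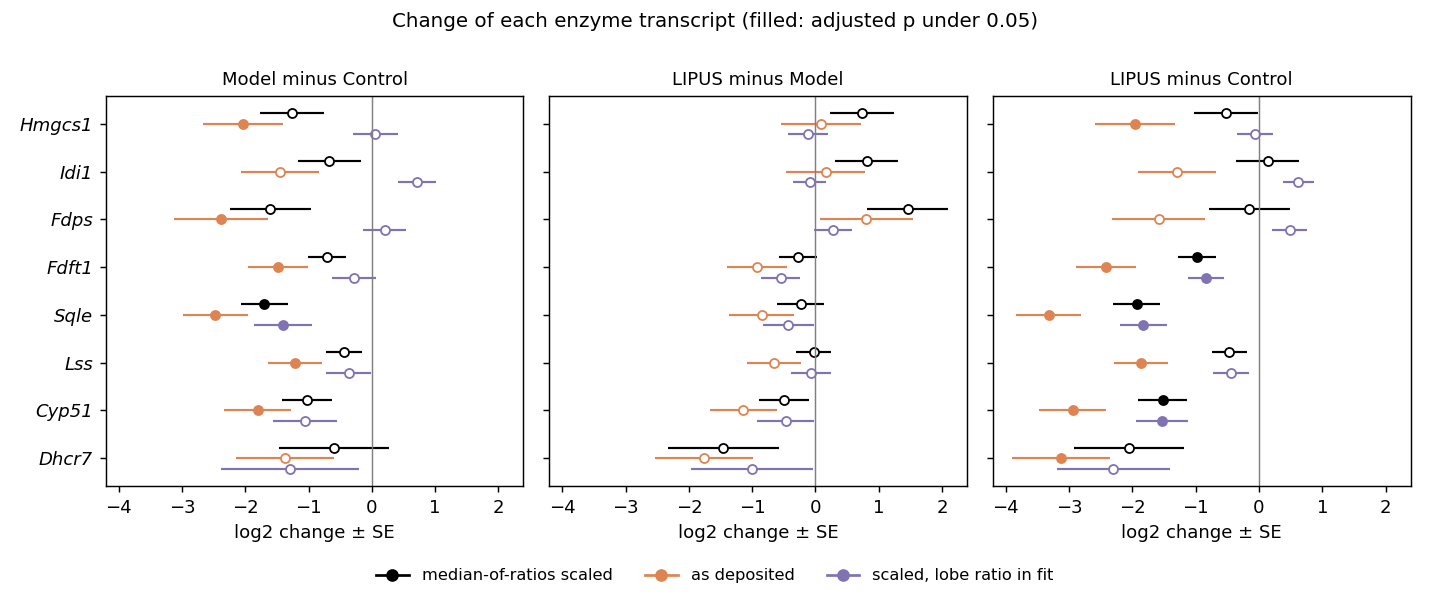
Log2 change and SE of each enzyme in the 3 comparisons, on rescaled FPKM, on FPKM as deposited and with the lobe ratio in the fit (filled points: limma adjusted p under 0.05). Sqle is filled in Model and LIPUS against Control on every scale, and the isoprenoid-part enzymes lie near or right of 0 in both once the lobe ratio is in the fit.

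Ratios between enzymes of the same library need no scaling, and they moved both between and within the isoprenoid and sterol parts. Fdps to Sqle, as a ratio of FPKM, was 10.9, 7.91, 8.80, 10.2 and 8.07 in Control replicates 6 to 10. In LIPUS it was 41.2, 36.5, 35.4, 17.7 and 34.9, so every LIPUS sample lay above every Control sample. In Model it was 4.95, 56.5, 16.9, 4.41 and 4.34, with 3 samples below all of Control and 2 above. Hmgcs1 to Cyp51 was 0.628 to 1.06 in Control, 0.666 to 2.49 in LIPUS and 0.284 to 3.24 in Model. Idi1 to Dhcr7 was 3.91 to 4.997 in Control, 4.898 to 31.48 in 4 LIPUS samples and 1.15 to 83.39 in Model. It was undefined in LIPUS replicate 10, where Dhcr7 was 0. For enzymes of the same part the ratios spanned narrower ranges: Fdps to Hmgcs1 was 2.33 to 3.55 in Control, 1.64 to 4.40 in Model and 3.33 to 4.69 in LIPUS, and Cyp51 to Sqle was 3.49 to 4.12, 3.96 to 8.20 and 4.33 to 6.11. For Cyp51 to Sqle, too, every LIPUS sample lay above every Control sample. Hmgcs1 to Cyp51, Idi1 to Dhcr7 and Fdps to Hmgcs1 overlapped between these groups. Only some of the possible pairs were formed. The share of all gene pairs whose ratio separates LIPUS from Control was not counted. Fdps is the shortest of the 8 at 1271 bases and Sqle has 2241, and the part of length in the ratio was not tested. These ratios were formed after the values were seen and carry no test.

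**Figure D4:**
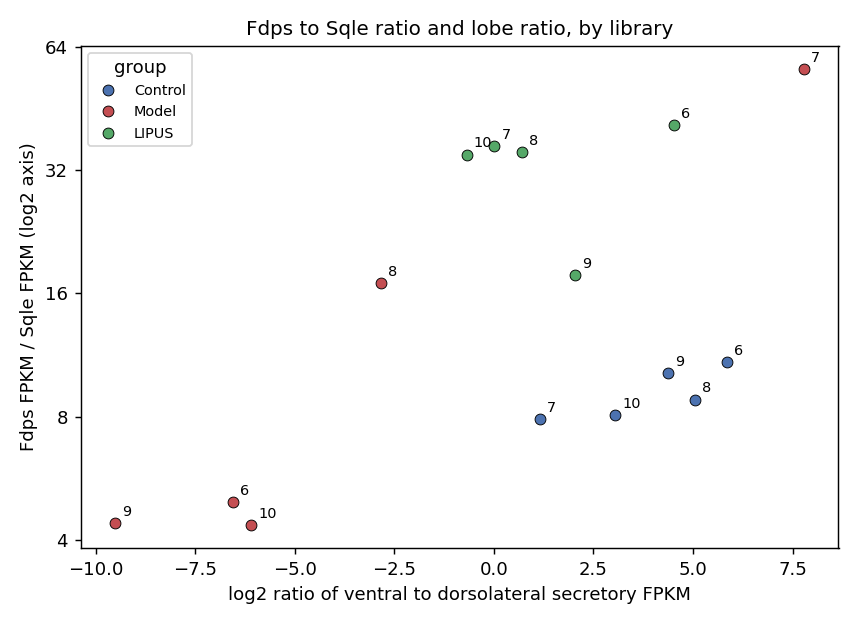
Fdps to Sqle FPKM ratio (log2 axis) against the log2 ratio of ventral to dorsolateral secretory FPKM, 1 point per library with its replicate number, coloured by group. The 3 Model samples with the lowest secretory ratios have the lowest Fdps to Sqle ratios (4.34 to 4.95), and Model replicate 7 has the highest of both (56.5 and 7.79). LIPUS samples lie above Control samples in Fdps to Sqle. Only LIPUS replicates 6 (4.52) and 9 (2.04) lie inside the Control range of secretory ratios (1.16 to 5.84), and the other LIPUS samples lie below it.

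Of 10 tested genes of lipoprotein uptake and intracellular transport, 1 fell in Model against Control and 0 rose, beside 20.2% and 15.3% of all genes. The count of lower genes was 6 as deposited, 4 with nuclear scaling and 3 with the lobe ratio in the fit, and 3 fell and 3 rose without Model replicate 7 and LIPUS replicate 10. Over all 12490 genes, 5382, 4073, 2549 and 3643 were called lower in these settings, and 3020 higher in the last. The gene called on rescaled FPKM was Lrp1, an endocytic receptor for lipoproteins. As deposited Lrp1 read 3.53, 4.83, 5.65, 3.82 and 4.33 FPKM in Control and 0.988, 0.351, 0.806, 0.696 and 0.912 in Model. In LIPUS it read 0.685, 0.505, 0.384, 0.369 and 0.123. Both groups lay below all of Control, with rescaled log2 changes of -1.69 (SE 0.31, limma adjusted p = 0.000765) and -1.98 (SE 0.31, adjusted p = 0.000403), and -2.06 and -2.11 with the lobe ratio in the fit. The calls held when any 1 of the 15 libraries was left out, with adjusted p up to 0.00315 and 0.00178. Lrp1 is a very long gene (14915 bases), and genes over 6 kb had a median change of -0.57 and -0.58, with 35.7% and 31.4% called lower, so its length class moved the same way. The part of length was not tested. In LIPUS against Control 2 of the 10 fell and 1 rose, beside 14.3% and 11.6% of all genes. As deposited 8 fell, with nuclear scaling 4 and with the lobe ratio 5, beside 9296, 2411 and 2599 of 12490 genes. The lipoprotein receptor Lrp8 (-1.47, adjusted p = 0.0129) fell with Lrp1. Lipa, the lysosomal enzyme that frees cholesterol from taken-up esters (1.08, adjusted p = 0.0126), rose, although it was -0.28 as deposited.

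A further 13 synthesis enzymes were mixed. In Model against Control 1 fell and 2 rose by limma, beside 20.2% and 15.3% of all genes. The counts were 4 and 0 as deposited, 4 and 2 with nuclear scaling, 4 and 3 with the lobe ratio and 1 and 4 without both outlying libraries. Over all 12490 genes these were 5382 and 368, 4073 and 668, 2549 and 1642, and 3643 and 3020. Msmo1, which acts soon after Cyp51, read 90.5, 52.5, 69.8, 76.6 and 69.1 FPKM as deposited in Control and 14.9, 10.6, 14.7, 14.4 and 22.0 in Model. No Model sample came near Control, and the rescaled log2 change was -1.46 (SE 0.40, adjusted p = 0.0105). The enzymes that rose were Pmvk (1.46, SE 0.19, adjusted p = 4.96e-05) and Mvd (1.50, SE 0.40, adjusted p = 0.00921), consecutive steps of the mevalonate part. Pmvk read 7.37 to 12.1 rescaled FPKM in Control and 21.1 to 30.0 in Model, and Mvd 2.21 to 4.29 and 5.72 to 11.1, so neither overlapped. As deposited their changes were 0.68 and 0.74 and not called. Both are short genes (1200 and 1674 bases). At 1 to 2 kb the median change was 0.22, with 25.0% of genes called higher, and the part of length was not tested.

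In LIPUS against Control 4 of these 13 fell and 1 rose, beside 14.3% and 11.6% of all genes. The counts were 10 and 0 as deposited and 4 and 3 without both libraries, beside 9296 and 119, and 2671 and 1984, of 12490 genes. Msmo1 was at -1.43 on the log2 scale (adjusted p = 0.0163), and Hsd17b7, which acts in sterol demethylation, at -1.81 (adjusted p = 0.0128). Sc5d, a desaturase of the sterol ring, was at -1.30 (adjusted p = 0.0269) and Lbr, which also reduces sterols, at -1.28 (adjusted p = 0.0474), and they lost the call without 1 library in 5 and 11 of 15 cases. Pmvk rose by 0.82 (adjusted p = 0.00579), while as deposited it was at -0.61 and not called. In its length class, 1 to 2 kb, 21.1% of genes were called higher.

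**Figure D5:**
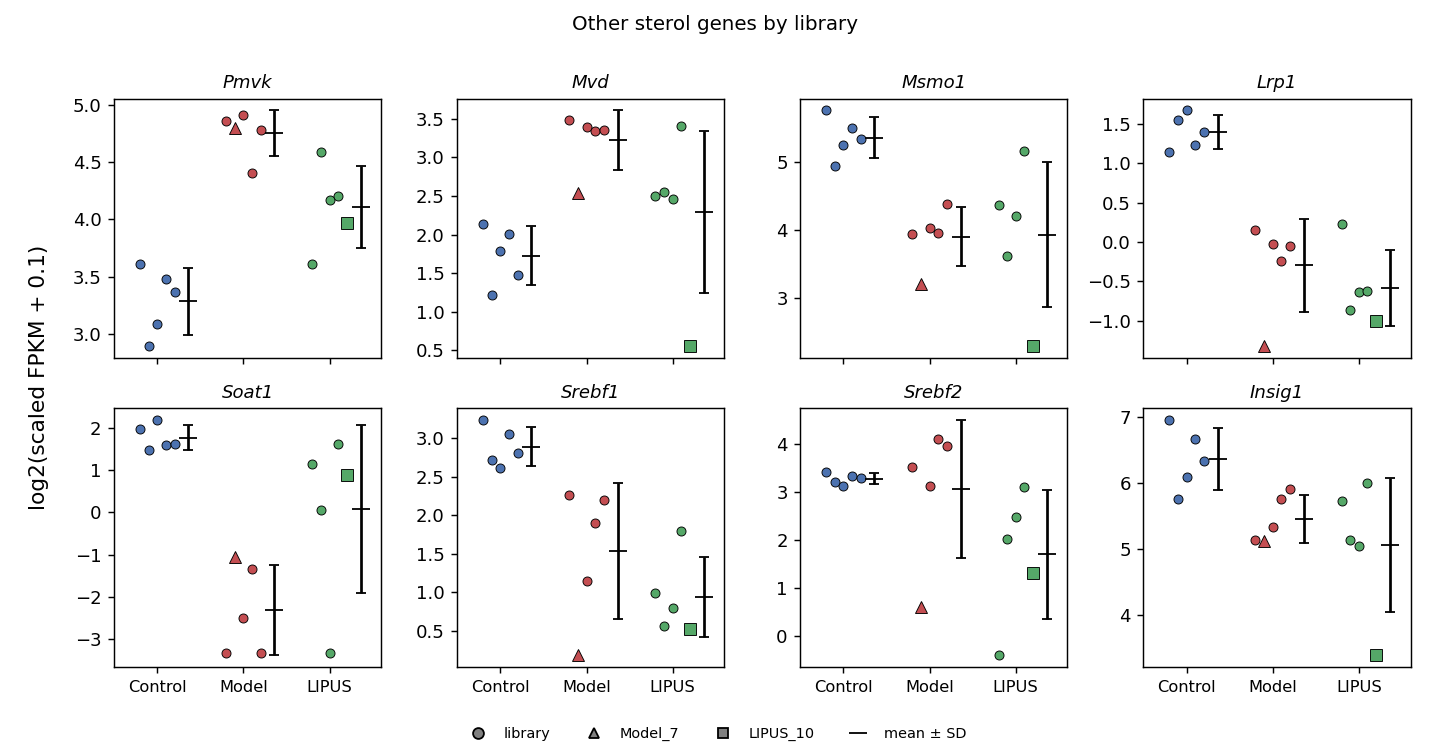
Log2(rescaled FPKM + 0.1) of 8 further sterol genes in every library, by group, with the mean and SD (bars) of 5 libraries and a separate y axis per gene. Control lies above every Model sample for Msmo1, Lrp1, Soat1 and Srebf1 and below every Model sample for Pmvk and Mvd, while Srebf2 overlaps with Model replicate 7 (triangle) far below the others.

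Among 12 genes of sterol sensing, 4 fell in Model against Control and 0 rose, beside 20.2% and 15.3% of all genes. As deposited and with nuclear scaling 8 fell, with the lobe ratio 9 fell, and without both outlying libraries 5 fell and 2 rose. Over all 12490 genes, 5382, 4073, 2549 and 3643 were called lower in these settings, and 3020 higher in the last. The 4 called on rescaled FPKM were Mbtps1, the protease that makes the first cut of SREBP (-1.18, limma adjusted p = 0.00233), Srebf1, the gene of SREBP-1 (-1.35, adjusted p = 0.0101), the ubiquitin ligase Rnf139 (-1.47, adjusted p = 0.011) and Insig2, which holds SREBP back (-1.20, adjusted p = 0.0194, and 0.0547 without Model replicate 10). Srebf2 encodes the factor that drives the 8 enzymes. As deposited it read 17.7, 15.6, 15.9, 17.0 and 16.8 FPKM in Control, 11.2, 1.65, 7.84, 16.1 and 16.5 in Model and 0.423, 4.45, 3.90, 5.69 and 0.742 in LIPUS. On that scale the median change over all genes was -0.90 in Model and -1.48 in LIPUS against Control. As rescaled FPKM, Srebf2 was at 1.42 in Model replicate 7 and at 8.60 in the next lowest Model sample. The rescaled log2 change of Srebf2 in Model against Control was -0.21 (adjusted p = 0.83), 0.41 without Model replicate 7, and -1.72 (adjusted p = 0.0277) with the lobe ratio in the fit, so Srebf2 has no settled direction. Insig1, itself a target of SREBP, was at -0.91 (adjusted p = 0.0862) and Scap at -0.83 (adjusted p = 0.0679).

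In LIPUS against Control 5 of the 12 fell and 0 rose, beside 14.3% and 11.6% of all genes. The count of lower genes was 12 as deposited, 11 with nuclear scaling, 10 with the lobe ratio and 9 without both libraries. Over all 12490 genes, 9296 (74.4%), 2411, 2599 and 2671 were called lower in the same settings. Srebf1 was at -1.95 (adjusted p = 0.00133), Mbtps1 at -1.02 (adjusted p = 0.00835), Insig1 at -1.30 (adjusted p = 0.0252) and Scap at -0.97 (adjusted p = 0.0461). Scap lost the call when any of 12 libraries was left out and Insig1 without Control replicate 6 or 9. Srebf2 was at -1.57 (adjusted p = 0.0899).

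In storage, efflux and oxysterol genes (9 tested), 2 fell and 0 rose in Model against Control, beside 20.2% and 15.3% of all genes. They were Soat1, which esterifies cholesterol for storage (-4.08, SE 0.76, limma adjusted p = 0.000839), and the sterol hydroxylase Cyp27a1 (-1.08, adjusted p = 0.0354, lost in 8 of 15 single-library omissions). Soat1 read 4.57 to 8.11 FPKM as deposited in Control, 0 to 0.440 in Model and 0 to 1.99 in LIPUS, and its rescaled log2 change in LIPUS against Control was -1.69 (adjusted p = 0.118). In LIPUS against Control 2 rose and 1 fell, beside 11.6% and 14.3% of all genes. The counts were 0 and 7 as deposited, 1 and 3 with nuclear scaling and 2 and 2 with the lobe ratio. Over all 12490 genes these were 119 and 9296, 595 and 2411, and 1885 and 2599. Cyp27a1 fell (-1.30, adjusted p = 0.0189, and 0.0506 without Control replicate 6). Apoe, a lipoprotein that carries cholesterol out of macrophages and other cells (2.14, adjusted p = 0.0165), and Nr1h3, the sterol-sensing receptor LXR alpha (1.55, adjusted p = 0.0235), rose, at 0.70 and 0.27 as deposited and not called. The Nr1h3 call was lost without Control replicate 6, Control replicate 10 or LIPUS replicate 8, with adjusted p up to 0.0629. Macrophage markers were highest in LIPUS (72.8 to 233 summed rescaled FPKM), and their part in the Apoe and Nr1h3 values was not tested.

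Fatty acid synthesis, the side of the program that SREBP-1 governs, had 3 of 10 genes lower in both Model and LIPUS against Control and 0 higher, beside 20.2% and 14.3% of all genes called lower. As deposited 4 and 8 were lower, beside 5382 and 9296 of 12490 genes. With the lobe ratio in the fit 5 and 5 were lower, beside 2549 and 2599. The genes were Scd, the stearoyl desaturase (-4.51 in Model and -4.60 in LIPUS, limma adjusted p = 6.37e-05 and 0.000113), the elongase Elovl6 (-2.72 and -1.60, adjusted p = 5.84e-05 and 0.00477) and Acaca, the acetyl-CoA carboxylase (-1.08 and -1.12, adjusted p = 0.00311 and 0.00368). Scd is also expressed in fat cells, whose markers were lower in Model, and their part was not tested. Of 9 genes of other mevalonate branches, 0 were called in Model against Control (2 at an unadjusted p under 0.05, 0 by limma-voom), beside 20.2% of all genes called lower and 15.3% higher. In LIPUS against Control 1 fell, beside 14.3% of all genes: Icmt, which methylates prenylated proteins (-1.32, adjusted p = 0.0168). As deposited 2 and 9 of the 9 were lower, beside 43.1% and 74.4% of all genes. With nuclear scaling 2 and 1 were lower, beside 4073 and 2411 of 12490 genes. In LIPUS against Model 0 of the 63 genes of these lists were called by limma and 0 by limma-voom, with 13 at an unadjusted p under 0.05. Model replicate 7 set that count too: without it 5 of the 63 were called higher and 18 lower, and without it and LIPUS replicate 10 these were 7 and 19. Over all 12490 genes these fits called 1884 higher and 2117 lower, and 2077 and 2313. As deposited 7 of the 63 were called, all lower, beside 1657 of all genes called lower. With the lobe ratio in the fit 1 was called, higher, beside 319 of all genes called higher.

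The genes most like the 8 enzymes across samples were found by the Pearson r of each tested gene's group-centred log2 values with the mean of the 8, over 15 samples. The 5 highest outside the 8 were Trabd (0.97), Zc2hc1c (0.95), Pcmt1 (0.95), Dusp22 (0.94) and LOC102551408 (0.92). Insig1 followed the enzymes at 0.85 and Msmo1 at 0.72, against -0.14 for Srebf2. All points share library depth and scaling, and no p is given.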

How the data were processed

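RNA-seq of prostate tissue was used from 15 samples of SD rats, 5 each in Control, Model and LIPUS, grouped by the sample titles. Per the labels' protocols, RNA was isolated with TRIzol and made into libraries with a VAHTS Universal V5 kit. The authors deposited FPKM for 22436 genes, 1 value per gene and sample. The submitters' processing notes name DESeq2, R 3.2.0, HTSeq, SAMtools, HISAT2, fastp and the build rn6, with no role or order, and strand is not given in the sources used here.

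Reads were recovered from the deposited FPKM as whole numbers: all 22436 genes came out whole within 0.001 reads in every library. In a simulation of 21877 genes, all reads of 95.6% were returned. The reads were used for depth, the mitochondrial share and limma-voom, and a count of 0 was taken to allow 3 reads (counting error only).

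FPKM was divided by a median-of-ratios factor per library, from 10313 genes above 0 in every library. Then log2(value + 0.1) was fitted with limma 3.58.1 in R 4.3.3, with the 3 groups fitted together and an intensity trend, for 12490 genes above 0.5 FPKM in at least 5 samples. A gene was called at a Benjamini-Hochberg adjusted p under 0.05 over these genes. The fit was tested on simulated data with known changes. Fold changes are on the log2(value + 0.1) scale and understate low genes. The pooled spread assumes that groups vary alike, while their mitochondrial share did not (SD 0.406, 9.18 and 15.7 percent of reads in Control, Model and LIPUS).

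Alternatives were FPKM as deposited, nuclear scaling, quantile normalization, pseudocounts, filters, only the 2 groups compared, array weights, the replicate number as a block, the lobe ratio as a term, limma-voom with TMM factors, and each library left out. Leaving out Model replicate 7 and LIPUS replicate 10 together was added after the data were seen. All 8 enzymes are named. From each pathway list up to 4 called genes with the smallest p per comparison are named, with Srebf2, Scap and Insig1 always. Lbr and, in LIPUS against Control, Soat1 were named after their values were seen. The members and lists were chosen with earlier results of these data known. Some genes of the lists are not reported here and are left out of the list counts. Promoter windows came from RefSeq (GRCr8), and no coordinates of rn6 are given. Libraries of a group differed by a chi-square per gene of at least 75.1, so none was treated as a second copy of another. This does not show separate animals.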

Additional observations from a re-analysis of the deposited data

Results flagged for a closer look

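In 99 groups of 5 samples (31 genes and 2 library measures, in each of 3 groups) the sample farthest from the rest was set against Dixon's critical gap, and 10 groups had a sample beyond it. Chance gives about 1 in 20 groups. Values are rescaled FPKM. Among the 8 enzymes, LIPUS replicate 10 was low for Fdft1 at 8.84 (next 20.8) and for Dhcr7 at 0.0 (next 1.94), and Model replicate 7 was low for Dhcr7 at 0.871 (next 4.64). In the same Model library Lrp1 was low at 0.302, Mvd at 5.72, Scap at 2.49 and Srebf2 at 1.42. The other low values were Hsd17b7 at 0.0825 in LIPUS replicate 6 and Pmvk at 21.1 in Model replicate 9. Scap was high at 11.4 in LIPUS replicate 9. Neither library measure was flagged in any group, so Model replicate 7 was not beyond the gap in lobe ratio. Nor was LIPUS replicate 10 in mitochondrial share. Model replicate 7 was also not flagged for Fdps, Hmgcs1 or Idi1. Of the 10, 5 fell in Model replicate 7, the library with the highest ventral to dorsolateral ratio (7.79), and 2 in LIPUS replicate 10, the library with the highest mitochondrial share (83.3%).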

How the results depend on the processing

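Of the 8 enzymes, 1 was called lower in Model against Control. Under other settings the count was 6 as deposited, 6 with nuclear scaling, 5 with quantile normalization, 2 with a pseudocount of 1, 3 with only the 2 groups compared, 6 with array weights, 5 with limma-voom, 6 without Model replicate 7 and LIPUS replicate 10 together (added after the data were seen) and 1 to 5 when single libraries were left out. In LIPUS against Model the count of 0 became 2 with array weights, 4 without both libraries (Hmgcs1, Idi1 and Fdps higher, Dhcr7 lower) and 0 to 3 with single libraries left out. In LIPUS against Control the count of 3 became 6 as deposited and 2 to 4 with single libraries left out. It was 4 with nuclear scaling, with array weights and without both libraries. Over all genes, 4437 calls in Model against Control became 7681 with array weights, 6663 without both libraries and 3610 to 5892 without single ones. They were 5750 as deposited, 4741 with nuclear scaling, 4160 with quantile normalization, 4727 with a pseudocount of 1, 5296 with only the 2 groups compared and 5291 with limma-voom. The 527 calls of LIPUS against Model became 1820 as deposited, 261 with nuclear scaling, 272 without a filter, 1 with only the 2 groups compared, 2570 with array weights, 128 with the replicate block, 126 with limma-voom, 4390 without both libraries and 115 to 4001 without single ones. The 3230 calls of LIPUS against Control became 9415 as deposited and 2389 to 4296 without single libraries. The causes were not tested.

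Same-numbered samples of different groups had r of -0.42 to 0.25 over 15 pairs, beside -0.38 to 0.46 over 60 differently numbered pairs. These values show no pairing by number, but with 5 samples per group they cannot exclude it. With the replicate number as a block, Model against Control had 1 enzyme and 4141 genes called and LIPUS against Model 0 and 128. The same block left LIPUS against Control with 2 enzymes (Fdft1 lost, adjusted p = 0.0538 by limma) and 2862 genes.

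Several log2 changes that were small or imprecise turned sign. With the lobe ratio in the fit they were 0.20 (Fdps), 0.056 (Hmgcs1) and 0.71 (Idi1) in Model against Control, -0.12 (Hmgcs1), -0.091 (Idi1) and 0.18 (Scap) in LIPUS against Model and 0.48 (Fdps) in LIPUS against Control. Srebf2 in Model against Control was 0.31 with array weights, 0.41 without both libraries and -0.47 to 0.41 (without Model replicate 7) over single libraries. In LIPUS against Model, the ranges over single libraries left out were -0.40 to 0.016 (Fdft1), -0.63 to 0.029 (Insig1), -0.21 to 0.21 (Lss), -0.47 to 0.0033 (Scap) and -0.47 to 0.16 (Sqle), with the highest value without LIPUS replicate 10 or, for Lss and Scap, Model replicate 10. Without LIPUS replicate 10 Lss was 0.16. Without both libraries Fdft1 was 0.13, Lss 0.17 and Sqle 0.18. With nuclear scaling Lss was 0.22, Scap 0.11 and Sqle 0.013, and with limma-voom Lss was 0.024. In LIPUS against Control, Fdps was 0.022 with array weights, 0.22 without both libraries and -0.40 to 0.22 over single libraries, and Idi1 -1.29 as deposited, -0.15 with nuclear scaling, -0.18 with quantile normalization and -0.11 (without LIPUS replicate 6) to 0.45 over single libraries. As deposited Lipa was -0.28 and Pmvk -0.61. Depth limits the low values: Dhcr7 had 0 to 358 reads in LIPUS.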
